A study of Mus musculus with 6 samples.

Results

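The genes of oxidative phosphorylation were followed in control and Keap1 knockout small cell lung tumours of the mouse. Members were the genes of the count table whose symbol begins with Nduf, Uqcr, Cox4 to Cox8, Atp5, mt-Nd, mt-Co, mt-Atp or mt-Cytb, or is Sdha, Sdhb, Sdhc or Sdhd, with at least 100 reads summed over the 6 libraries. The pattern matched 120 of 56980 gene identifiers and 101 of them reached the minimum, 91 encoded in the nucleus and 10 in the mitochondrial genome. Just inside the minimum was Cox7a1 with 190 reads and just outside it mt-Nd4l with 74. The 19 genes below it included mt-Nd3 with 66 reads, mt-Atp8 with 55 and 3 genes with no read. All 101 members passed the filter on low counts, among 17901 genes tested.

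The libraries were made from 3 controls and 3 Keap1 knockouts, all lung tumours of a model labelled QKO about 4 months after virus was given. The knockouts differed from the controls, per the labels, in the loss of Keap1, the protein through which cells keep the transcription factor NRF2 at low levels. The series asked how Keap1 acts on the development of these tumours, after a screen of tumour suppressors had pointed to it. The meaning of QKO, the means of inactivating Keap1 and the number of animals behind each group are not in the labels. A p-value here therefore measures only the spread between these samples.

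Oxidative phosphorylation passes electrons from NADH and succinate along complexes I to IV of the inner mitochondrial membrane to oxygen. Complexes I, III and IV pump protons, and ATP synthase, complex V, lets them flow back to make ATP. Most subunits are encoded in the nucleus and imported, while the mitochondrial genome encodes a few of the membrane-bound subunits of every complex except II, transcribed from both strands as long precursors that are cut into single RNAs. Small cell lung cancer is a neuroendocrine carcinoma, and NRF2 is best known for switching on glutathione synthesis and detoxification genes.

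For mitochondrial RNAs the sequence itself bears on what the counts can show, because the nucleus holds copies of pieces of the mitochondrial genome. The stretches below are 60 bases of mt-Co2 (chrM:7313-7372, plus strand, GRCm38) and of mt-Cytb (chrM:14445-14504, plus strand, GRCm38), each with the aligned stretch of its closest nuclear copy. The capitals mark the bases that differ between gene and copy, 0 for mt-Co2 and 7 for mt-Cytb.
mt-Co2: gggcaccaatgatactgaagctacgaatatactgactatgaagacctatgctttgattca
Gm28661: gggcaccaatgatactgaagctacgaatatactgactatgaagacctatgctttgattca
mt-Cytb: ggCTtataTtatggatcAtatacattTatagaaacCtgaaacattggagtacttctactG
Gm11410: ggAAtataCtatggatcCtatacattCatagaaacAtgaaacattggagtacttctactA
Over the whole gene, Gm28661 was identical to mt-Co2 across 681 of 684 bases, so a read from either gene fits both. The copies of mt-Atp6 (Gm10925, 678 of 681 bases), mt-Co3 (Gm28437, 783 of 784 bases) and mt-Nd4l (Gm10222, 294 of 297 bases) were also at 100% identity. For mt-Nd3 the identity was 99.71% over 345 of 348 bases. By contrast, the closest copy of mt-Cytb was at 92.91% identity and that of mt-Nd6 at 93.64%, and no transcript at 90% or more was found for mt-Nd1.

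Promoters of nuclear members were read from RefSeq (GRCm38.p6), from 250 bases before to 50 bases after the start, and 75 of the 91 matched an entry. Those of Ndufs7 (chr10:80249199-80249498, plus strand) and Atp5g2 (chr15:102670998-102671297, minus strand) are printed because both genes are among the members with the smallest p of their complex and each holds 1 match, in capitals, to a motif of a factor known for genes of this pathway. In Ndufs7 it is a YY1 site and in Atp5g2 an NRF1 site. The promoters of Uqcrfs1 and Cox6b2, of complexes III and IV, were read in the same way, held no match to the motifs searched and are not printed.
Ndufs7: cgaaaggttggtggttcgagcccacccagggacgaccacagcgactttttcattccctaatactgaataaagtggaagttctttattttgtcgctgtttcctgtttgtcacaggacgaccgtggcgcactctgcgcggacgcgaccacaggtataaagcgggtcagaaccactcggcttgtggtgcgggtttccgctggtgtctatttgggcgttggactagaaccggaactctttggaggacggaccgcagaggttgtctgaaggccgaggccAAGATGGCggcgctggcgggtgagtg
Atp5g2: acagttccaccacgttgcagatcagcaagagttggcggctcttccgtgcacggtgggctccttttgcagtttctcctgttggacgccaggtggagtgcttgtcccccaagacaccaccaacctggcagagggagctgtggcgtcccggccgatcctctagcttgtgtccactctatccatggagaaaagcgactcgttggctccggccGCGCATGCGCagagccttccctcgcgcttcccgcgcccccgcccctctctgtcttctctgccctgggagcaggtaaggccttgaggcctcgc
The motifs were searched on both strands, and a gene counted if any of its promoters held a match. The NRF1 site, spelled by the capitals in Atp5g2, was in 7 of the 75 members (9.33%), against 1.07% of all 27025 genes with a promoter. The ETS site CCGGAAG, bound by GABPA, was in 18 (24%), against 9.93%. The YY1 site AAGATGGC was in 11 (14.7%), against 3.19%. The element TGACNNNGC, of the NRF2 type, was in 11 (14.7%), against 14.0% of all genes with a promoter. A match is a description of these letters and not a site of binding.

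Library totals ran from 18731515 to 23759892 reads, and the members took 1.83% to 2.21% of them. Nqo1, a standard NRF2 target, stood at 3.58 to 49.6 CPM (read counts scaled to a common library total) in controls and at 864 to 1324 CPM in knockouts, while Keap1 RNA overlapped between the groups (58.7 to 78.4 against 67.5 to 93.0 CPM). The control libraries differed widely in their cell markers. Neuroendocrine markers (6 genes) summed to 4218 CPM in control 3 and to 5.0 to 117 CPM in the other 5 libraries, where Neurod1 had at most 4 reads and none in the 3 knockouts. Neuroendocrine identity was thus plain in 1 library of 6 by these markers. Fibroblast markers summed to 33869 CPM in control 2, and basal and squamous markers to 6602 CPM in control 1. Alveolar, club and ciliated markers (7 of 7 detected) summed to 270 to 2543 CPM in controls and 3140 to 7428 CPM in knockouts. They did not move together: Scgb1a1, Scgb3a2 and Sftpb were higher in every knockout, Sftpc, Lamp3 and Ager overlapped, and Foxj1, the ciliated marker, was lower in every knockout (11.3 to 18.0 against 18.9 to 29.8 CPM). Macrophage markers (6 of 6 detected) summed to 252 to 770 and 153 to 195 CPM. The sums of both lists did not overlap between groups, and their part in the results below was not tested. In bulk samples fewer cells of a type and less RNA per cell cannot be told apart.

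Nuclear-encoded members had mostly positive fold changes in the knockouts, while those of mitochondrially encoded members lay on both sides of 0. Of the 91 nuclear members 70 had a positive log2 fold change, with a median of 0.29, against 46.1% of all genes tested and a median of -0.08. Of the 10 mitochondrial members 4 were positive and the median was -0.04, a sign that turned without a filter and with some samples left out (-0.17 to 0.09). No member reached an adjusted p below 0.05 by edgeR's quasi-likelihood test, by which 2.42% of all genes were called higher and 1.89% lower. The smallest adjusted p was 0.0505, for Ndufa2. At an unadjusted p below 0.05, edgeR had 24 members higher and 3 lower, against 13.8% and 16.9% of all genes. DESeq2 called 19 members higher and 3 lower, against 11.8% and 14.8% of all genes, and limma voom called 2 higher (Ndufa2 and Uqcrfs1) and 0 lower, against 3.71% and 2.25%.

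In 38 of the 91 nuclear members (41.8%) every knockout library was above every control, a separation seen in 21.5% of all genes, and in 2 every knockout was below, seen in 19.1%. With 1 library left out at a time the count of nuclear members with knockouts above ran from 40 to 52, while that share of all genes ran from 24.1% to 28.8%. The count with knockouts below ran from 2 to 9, the highest without control 2, while that share of all genes ran from 21.0% to 26.9%. Groups with fewer libraries separate more easily, so these counts and shares tend to rise for any set of genes. The ranges therefore cannot show whether the separation was stable. Libraries of control 2 and control 3 most often held the lowest value, in 31 and 27 of the 91 genes, and each knockout did so in 3 to 6. The libraries within a group also varied less in the knockouts. The median SD of log2 CPM over nuclear members was 0.26 in controls and 0.12 in knockouts, and over all genes it was 0.58 and 0.22.

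**Figure D1:**
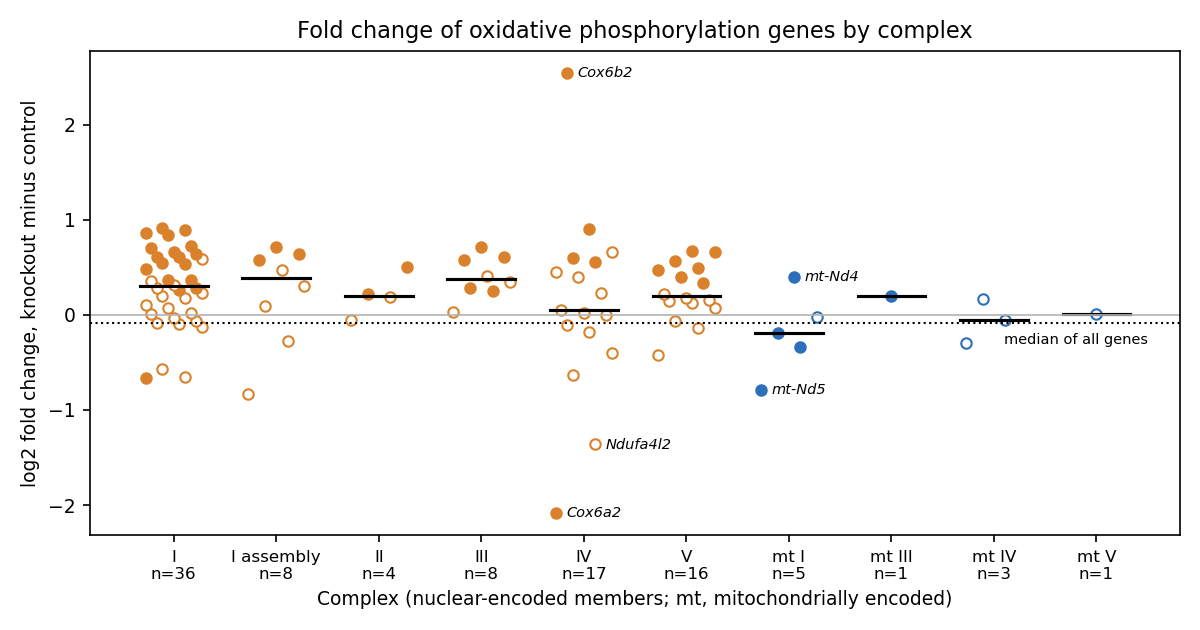
Log2 fold change (knockout minus control, edgeR) of each member, by complex and by genome of origin, with 1 point per gene (filled where the groups did not overlap), a bar at each median and a dotted line at the median of all genes. Nuclear complex III has all 8 genes above 0, while the 10 mitochondrial genes lie on both sides, from -0.79 to 0.40.

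Complex I takes electrons from NADH. Its 36 nuclear subunit genes summed to 1973, 1789 and 1913 CPM in controls 1 to 3 and to 2425, 2554 and 2425 CPM in knockouts 1 to 3. All knockout sums lay above all control sums, averaging 1892 ± 93.8 against 2468 ± 74.8 CPM (SD, n = 3 each). Of the 36 genes 28 had a positive fold change (median 0.30), and in 17 the knockouts lay above the controls, against 1 below, beside 21.5% and 19.1% of all genes. By DESeq2 9 were called higher and 1 lower, beside 11.8% and 14.8%.

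Several nuclear subunits of complex I carry the electrons themselves. Ndufs7, whose iron-sulfur cluster hands electrons to ubiquinone, stood at 68.9, 68.7 and 49.1 CPM in controls and at 115, 113 and 111 CPM in knockouts. The groups were well apart, by 0.86 ± 0.19 (SE) on the log2 scale, and the adjusted p by edgeR was 0.0584. Ndufs8, an iron-sulfur subunit next to it, stood at 46.5, 54.9 and 30.6 CPM in controls and at 99.1, 84.4 and 66.0 CPM in knockouts. Control 3 was the lowest and no library overlapped, with a log2 fold change of 0.92 ± 0.28 and an adjusted p of 0.0973. Ndufv1, which binds NADH, was at 51.4 to 108 and 129 to 146 CPM (adjusted p 0.163). Ndufs1, which carries iron-sulfur clusters as well, overlapped at 52.0 to 85 and 64.3 to 70.2 CPM (adjusted p 0.987), and so did Ndufv2 at 81.3 to 118 and 97.8 to 105 CPM.

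Most accessory subunits carry Ndufa or Ndufb names. Ndufa2, an accessory subunit of the matrix arm, stood at 63.2, 78.6 and 78.3 CPM in controls and at 128, 141 and 124 CPM in knockouts. Every knockout was above every control, by 0.84 ± 0.17 on the log2 scale (adjusted p 0.0505 by edgeR). Ndufa13, also known as GRIM-19, stood at 58.6, 48.8 and 51.2 CPM in controls and at 79.6, 93.4 and 76.9 CPM in knockouts. The groups were apart again, with a log2 fold change of 0.66 ± 0.17 and an adjusted p of 0.0737. Knockouts lay above controls in 8 of 13 Ndufa genes (median 0.32) and in 6 of 8 Ndufs genes (median 0.57), beside 21.5% of all genes.

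The 10 Ndufb genes, subunits of the membrane arm, had a median of -0.07. Knockouts lay above controls in 1 of them and below in 1, beside 21.5% and 19.1% of all genes. The sums of the Ndufb genes overlapped, at 491, 325 and 385 CPM in controls and 389, 457 and 435 CPM in knockouts. Ndufb6 was the gene below, at 20.7, 15.8 and 20.5 CPM in controls and 11, 12.5 and 12.5 CPM in knockouts. Its groups did not overlap, but the log2 fold change of -0.66 ± 0.26 did not pass by edgeR (adjusted p 0.149). Ndufb3 was the gene above, at 25.7 to 27.9 and 32.2 to 45.7 CPM (adjusted p 0.123). The difference between the subfamilies was not tested.

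The 8 assembly factors of complex I that the pattern takes in, the Ndufaf genes, had a median of 0.39, and none passed by edgeR, DESeq2 or limma voom (1 at an unadjusted p below 0.05 by edgeR). Ndufaf3 stood at 16.1, 14.8 and 20.5 CPM in controls and at 31.0, 24.7 and 24.4 CPM in knockouts, apart (0.64 ± 0.25, adjusted p 0.146). Ndufaf4 ran the other way, at 14.9, 20.1 and 37.4 CPM against 10.7, 16.2 and 13.8 CPM, but its groups overlapped (-0.83 ± 0.41, adjusted p 0.223), and without control 3 the fold change was -0.37.

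Complex II, succinate dehydrogenase, is wholly encoded in the nucleus and links the citrate cycle to the chain. Its 4 genes summed to 500, 527 and 451 CPM in controls and to 587, 577 and 549 CPM in knockouts, apart, with means of 493 ± 38.3 and 571 ± 19.8 CPM. Sdhc, a membrane anchor, stood at 105, 106 and 70.3 CPM in controls and at 141, 132 and 125 CPM in knockouts (log2 fold change 0.51 ± 0.21, adjusted p 0.164). Control 3 was low and the groups were apart. Sdha, the flavoprotein that oxidises succinate, was at 158, 186 and 157 and at 196, 200 and 188 CPM, also apart (0.22 ± 0.16, adjusted p 0.376). Sdhb, the iron-sulfur subunit, overlapped at 111, 125 and 127 against 124, 108 and 119 CPM (-0.05 ± 0.15), and so did Sdhd, the other anchor, at 97.5 to 126 and 116 to 137 CPM.

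Complex III, which passes electrons from ubiquinol to cytochrome c, had all 8 nuclear genes with a positive fold change, from 0.03 to 0.72, and a median of 0.38. Their sums were 757, 671 and 681 CPM in controls and 936, 975 and 928 CPM in knockouts, 1.35 times higher on the means. Uqcrfs1, the Rieske iron-sulfur protein, stood at 100, 97.9 and 113 CPM in controls and at 164, 169 and 177 CPM in knockouts. The 6 libraries were far apart by group, with a log2 fold change of 0.72 ± 0.15 and an adjusted p of 0.0546 by edgeR. Uqcr10, a small accessory subunit, was at 59.3 to 83.8 and 105 to 110 CPM (0.61 ± 0.18, adjusted p 0.0908). Uqcrh, the hinge protein at the cytochrome c site, was at 83.8 to 99.5 and 114 to 148 CPM (0.58 ± 0.18, adjusted p 0.0963). Uqcrc2, a core protein, overlapped at 78.8 to 109 and 93.8 to 102 CPM (adjusted p 0.917).

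Complex IV, cytochrome c oxidase, showed the widest scatter among nuclear members. Its 17 genes had fold changes on the log2 scale from -2.08 to 2.55 with a median of 0.06, 10 positive and 7 negative, and 4 had knockouts above controls and 1 below. The count above was near the 21.5% of all genes that separated this way, and the count below was under the 19.1%. Without control 1 the median was 0.30. Their summed level was 1726, 1326 and 1481 CPM in controls and 1824, 1953 and 1768 CPM in knockouts, apart but by little for control 1. Cox6b1, the ubiquitous form of a subunit at the cytochrome c side, was at 115, 104 and 103 and at 146, 188 and 155 CPM (0.60 ± 0.17, adjusted p 0.0846).

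The extremes of complex IV were isoforms that are usually restricted to other tissues. Cox6b2, the testis form of Cox6b1, stood at 2.59, 8.37 and 2.89 CPM in controls and at 11.4, 28.0 and 41.6 CPM in knockouts. All knockouts were above all controls, with a log2 fold change of 2.55 ± 0.70, which did not pass by edgeR (adjusted p 0.0812). Its share of the reads of both Cox6b genes was 2.20%, 7.42% and 2.74% in controls and 7.25%, 13% and 21.1% in knockouts, so control 2 and knockout 1 overlapped in the share. Cox6a2, the heart and muscle form, stood at 4.26, 6.34 and 12.1 CPM in controls and at 1.07, 2.38 and 1.89 CPM in knockouts. The groups did not overlap and the log2 fold change was -2.08 ± 0.57 (adjusted p 0.0798). Its share of the Cox6a reads was 1.59% to 5.80% in controls and 0.414% to 1.04% in knockouts, while the ubiquitous Cox6a1 overlapped at 197 to 265 and 194 to 258 CPM. The 12 striated muscle markers summed to 22 to 33.8 CPM in controls and 31.0 to 72.3 CPM in knockouts, and the muscle creatine kinase Ckm had at most 3 reads in any library. These markers did not move together. Myh6 (0.597 to 2.13 against 4.30 to 22.1 CPM) and Tnni3 (2.24 to 6.69 against 14.1 to 24.3 CPM) were higher in every knockout. The other markers overlapped, and Actn2, Acta1, Tnnt3, Actc1 and Mb were highest in control 3, as was Cox6a2. The part of muscle cells in the Cox6a2 values was not tested.

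Other isoforms mostly overlapped between groups. Cox7a2l, a homologue that acts in joining complexes III and IV, was at 173, 105 and 77.5 CPM in controls and at 202, 222 and 242 CPM in knockouts, apart, with control 1 closest to the knockouts (0.91 ± 0.32, adjusted p 0.124). Cox7a2, the form of most tissues, was at 100 to 171 and 179 to 207 CPM, apart (0.56 ± 0.24, adjusted p 0.172). Cox7a1, the muscle form, stayed below 2 CPM in every library. Ndufa4l2, which is induced by hypoxia, was at 74.8, 55.2 and 15.8 CPM in controls and at 47.1, 6.91 and 2.59 CPM in knockouts, with control 3 below knockout 1 (-1.36 ± 1.13, adjusted p 0.441). Its fold change was -3.33 without knockout 1, -0.82 without knockout 3, -0.90 without control 1 and -2.11 by limma voom. Its relative Ndufa4, now counted with complex IV, was at 58.9, 59.8 and 137 and at 116, 139 and 149 CPM, overlapping through control 3 (adjusted p 0.278). Cox4i2, a form known from lung, was at 2.54, 20.3 and 8.22 and at 6.81, 8.47 and 4.70 CPM, and without control 2 its fold change turned from -0.64 to 0.34. Cox4i1, its ubiquitous partner, and Cox8a overlapped at 179 to 260 against 222 to 258 CPM and at 73.3 to 166 against 142 to 203 CPM. Cox8b, the muscle partner of Cox8a, stayed below 0.6 CPM in every library and Cox8c had no read.

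**Figure D2:**
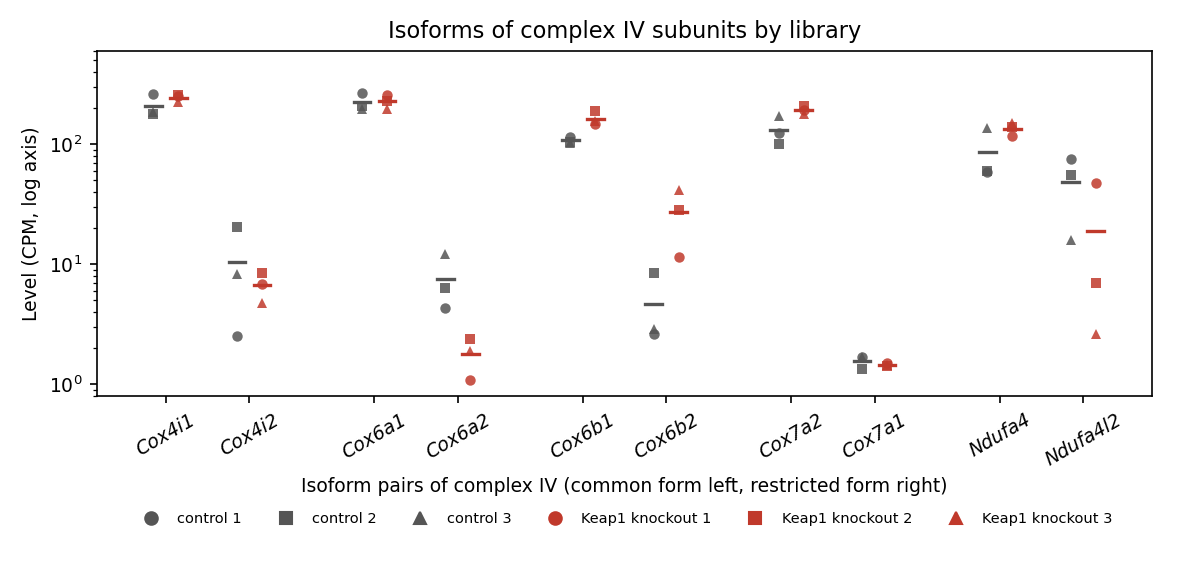
CPM on a log axis of 5 isoform pairs of complex IV, with 1 point per library, a bar at the group mean and controls in grey beside knockouts in red. Cox6b2 and Cox6a2 lie apart by group in opposite directions, and Cox4i2 and Ndufa4l2 overlap.

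Complex V, ATP synthase, had 16 nuclear subunit genes that summed to 2965, 2710 and 3024 CPM in controls and 3537, 3355 and 3192 CPM in knockouts. The sums did not overlap, with means of 2900 ± 167 and 3361 ± 173 CPM, and knockouts lay above controls in 7 of the 16 (21.5% of all genes) and below in none (19.1%). Atp5g2, one of the 3 genes that encode the membrane ring subunit c, stood at 106, 86.3 and 84.3 CPM in controls and at 151, 142 and 144 CPM in knockouts. The groups were apart (0.66 ± 0.16, adjusted p 0.0697 by edgeR), while its relatives overlapped, with Atp5g1 at 68.9 to 96.3 and 71.9 to 93.3 CPM and Atp5g3 at 167 to 196 and 182 to 202 CPM. Atp5d, the delta subunit of the central stalk, stood at 129, 155 and 123 CPM in controls and at 228, 222 and 197 CPM in knockouts. No library overlapped (0.67 ± 0.17, adjusted p 0.0742). Atp5e, its partner in the stalk, was also apart at 93.1 to 103 and 119 to 152 CPM (adjusted p 0.117), as was Atp5j2 of the membrane part at 102 to 136 and 163 to 194 CPM (adjusted p 0.106). Atp5a1, of the catalytic head, overlapped at 625 to 687 and 652 to 808 CPM. So did Atp5b, the catalytic subunit, at 738 to 882 and 721 to 787 CPM (adjusted p 0.829). Atpif1, the inhibitor of the enzyme, which the pattern does not take in, was at 13.9 to 17.7 and 21.8 to 24.5 CPM (adjusted p 0.193).

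Summed over all 91 nuclear members the level was 8059, 7156 and 7715 CPM in controls and 9470, 9587 and 9032 CPM in knockouts. The groups did not overlap and the means were 7644 ± 456 and 9363 ± 293 CPM, a ratio of 1.22, beside 1.07 for the summed level of all genes tested. The 10 mitochondrial members summed to 13577, 11072 and 12865 CPM in controls and to 12170, 10407 and 10072 CPM in knockouts, which overlapped, with means of 12505 ± 1291 and 10883 ± 1127 CPM and a ratio of 0.870.

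**Figure D3:**
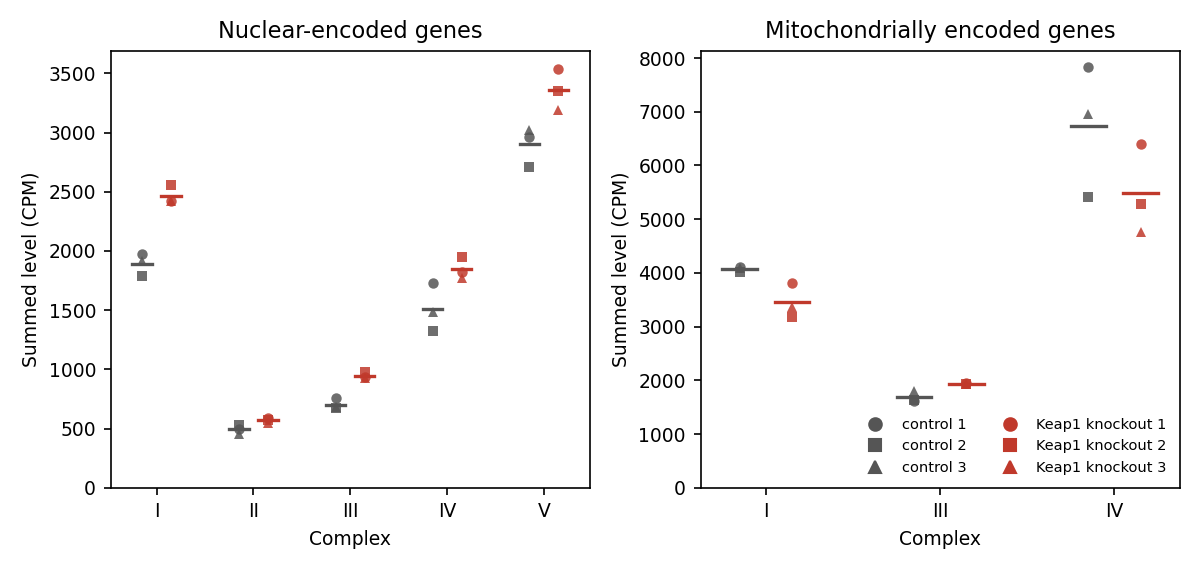
Summed CPM of nuclear members (left) and mitochondrial members of complexes I, III and IV (right), with 1 point per library and a bar at the group mean. Nuclear sums of complexes I, II, III, IV and V lie higher in all 3 knockouts, with complex III at 671 to 757 CPM in controls and 928 to 975 CPM in knockouts.

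Single mitochondrial RNAs differed from one another in direction, and none passed by edgeR. mt-Nd5, a proton-pumping subunit of complex I, stood at 1162, 1079 and 1032 CPM in controls and at 806, 578 and 515 CPM in knockouts. All knockouts were below all controls, with a log2 fold change of -0.79 ± 0.24 that did not pass by edgeR (adjusted p 0.0966) and passed by DESeq2 (adjusted p 0.00976). mt-Nd4, another pumping subunit, stood at 702, 756 and 705 CPM in controls and at 982, 912 and 961 CPM in knockouts. The order was reversed, with a log2 fold change of 0.40 ± 0.18 (adjusted p 0.187 by edgeR, 0.00616 by DESeq2). The ratio of mt-Nd5 reads to mt-Nd4 reads, which no library scaling affects, was 1.65, 1.43 and 1.46 in controls and 0.821, 0.633 and 0.535 in knockouts.

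The remaining complex I messengers showed smaller differences. mt-Nd1, of the membrane arm near the quinone site, was at 1520, 1421 and 1642 CPM in controls and at 1310, 1066 and 1247 CPM in knockouts, apart (-0.34 ± 0.20, adjusted p 0.298). mt-Nd2, a pumping subunit, was at 549 to 576 and 456 to 536 CPM, apart by little (-0.19 ± 0.18, adjusted p 0.483). mt-Nd6 lies on the opposite strand and its end overlaps that of mt-Nd5, and it was at 159 to 186 and 168 to 182 CPM (adjusted p 0.924). Since no source used here says whether counting used strand, reads in the overlap (chrM:13552-13565, GRCm38) cannot be assigned.

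mt-Cytb, the cytochrome b of complex III, stood at 1623, 1643 and 1807 CPM in controls and at 1952, 1929 and 1933 CPM in knockouts. Every knockout was above every control by a small step (0.20 ± 0.19, adjusted p 0.517). Its reads per mt-Nd1 read were 1.07, 1.16 and 1.10 in controls and 1.49, 1.81 and 1.55 in knockouts, also apart. The reads of mt-Nd1 per mt-Nd2 read overlapped, at 2.46 to 2.99 and 2.33 to 2.65. These pairs were chosen after the values were seen. mt-Co1, the catalytic subunit of complex IV, was the member with the most reads, at 7789, 5386 and 6932 CPM in controls and at 6353, 5267 and 4739 CPM in knockouts. These overlapped through control 2 (-0.30 ± 0.26, adjusted p 0.474).

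Messengers with a nuclear copy at 99% identity or more over nearly their whole length had few reads. So did mt-Atp8, for which no such copy was found among the annotated transcripts searched. The rest of the nuclear genome was not searched. Per kilobase of gene and summed over the 6 libraries, mt-Co1 had 492227 reads, mt-Cytb 200529 and mt-Nd5 58682, and of these mt-Co1 has copies at 99% or more over 31.3% of its length and Gm13340 matches all of it at 97.6%. mt-Co2, a complex IV core subunit, had 2942 per kilobase, mt-Co3, the third core subunit, had 2269, and mt-Atp6, the proton channel of complex V, had 1512, and mt-Atp8, its small partner, had 270. mt-Nd4, with an identical copy over 63.6% of its length, had 77008. Reads were also counted on the copies, and on Gm28661 they were 619, 374 and 468 in controls and 643, 439 and 582 in knockouts. The part of the copies in these low levels was not tested. mt-Co2 was at 21.1, 11.7 and 16.2 and at 18.7, 12.3 and 16.1 CPM, mt-Co3 at 10.1 to 15.6 and 12 to 19.2 CPM and mt-Atp6 at 6.34 to 9.80 and 6.09 to 10.4 CPM. All overlapped (adjusted p 0.924, 0.756 and 0.986), and control 2 and knockout 2 were the lowest of their group for each of these genes. mt-Nd3, mt-Nd4l and mt-Atp8, below the minimum, were at no more than 1.22 CPM in any library.

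**Figure D4:**
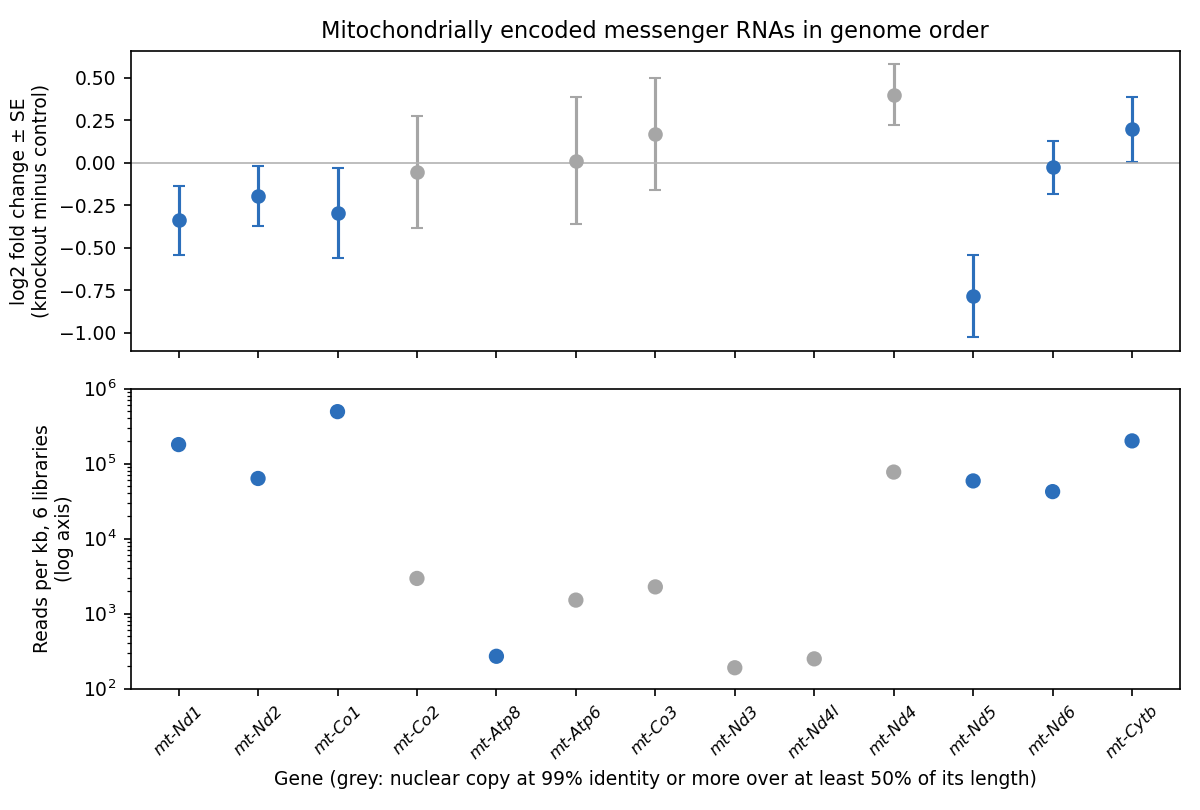
Mitochondrial messengers in genome order, with the log2 fold change ± SE of the 10 members (top) and reads per kilobase over the 6 libraries on a log axis (bottom), in grey where a nuclear copy at 99% identity or more covers at least 50% of the gene. mt-Nd5 lies at -0.79 and mt-Nd4 at 0.40, the grey genes other than mt-Nd4 have at most 2942 reads per kilobase, and mt-Atp8, not in grey, has 270. Copies were sought among annotated transcripts only.

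The contrast between the genomes was read within each library, as log2 of the summed CPM of 77 nuclear subunit genes of complexes I, III, IV and V over that of the 10 mitochondrial members. It was -0.87, -0.77 and -0.86 in controls and -0.48, -0.24 and -0.28 in knockouts. The groups were apart, with means of -0.83 ± 0.06 and -0.33 ± 0.13 (SD, n = 3 each) and a difference of 0.50. For complex I the ratio was -1.06, -1.17 and -1.10 in controls and -0.65, -0.32 and -0.47 in knockouts. Complex IV separated similarly, by 0.59, though its mitochondrial sum was mostly mt-Co1 (5453 of 5484 CPM on the knockout means). Complex III separated by 0.23 on the means, with control 1 at -1.10 close to knockouts 1 and 3 at -1.06 each. Complex V, whose only mitochondrial member is mt-Atp6, overlapped. Without any one library the difference ran from 0.45 to 0.58, it was 0.40 without mt-Co1, and it was 0.55 without the genes that have a near-identical nuclear copy. No p is given, since the members were chosen with results of these data known.

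**Figure D5:**
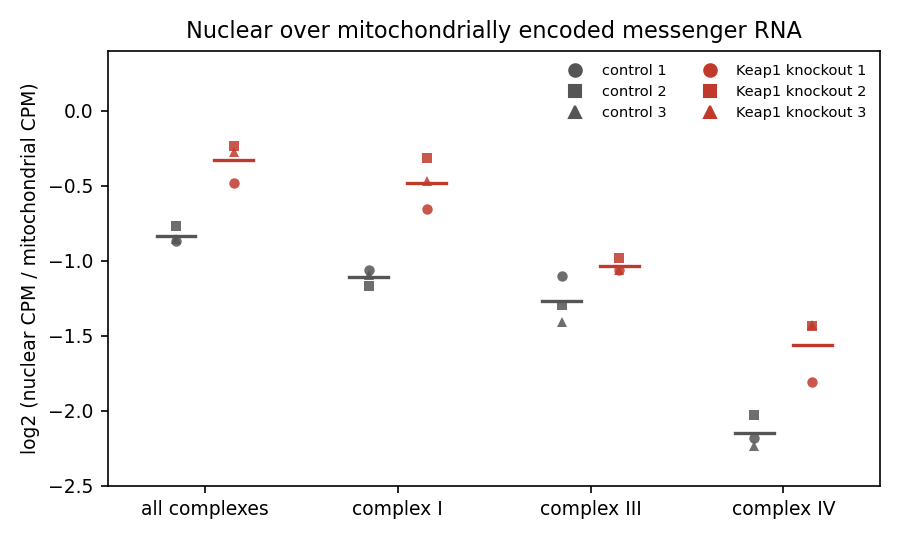
Log2 ratio of nuclear to mitochondrial summed CPM per library, over all complexes and within complexes I, III and IV, with 1 point per library and a bar at the group mean. Knockouts lie above controls over all complexes (-0.48 to -0.24 against -0.87 to -0.77) and in each of the 3 complexes drawn.

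Other genes of the mitochondrial machinery were described by their lists. The 77 mitochondrial ribosome genes tested had a median log2 fold change of 0.58, with 3 higher and none lower by edgeR, a share near the 2.42% of all genes called higher. Knockouts lay above controls in 53 of the 77, against 21.5% of all genes. Mrpl30, at 51.3 to 56.2 CPM in controls and 91.8 to 101 CPM in knockouts, rose by 0.84 ± 0.15 (adjusted p 0.0413), and Mrpl23 and Mrpl35 passed as well. The 81 cytosolic ribosome genes had a median of 1.03, with 19 higher and none lower. Among them Rps15a rose by 1.41 ± 0.17 (adjusted p 0.0273), from 193 to 206 CPM in controls to 503 to 554 CPM in knockouts.

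Of the 24 genes for membrane and import, 2 were higher and none lower by edgeR (median 0.52), beside 2.42% and 1.89% of all genes. Timm44, which tethers the import motor, was at 50.2 to 54.0 and 87.3 to 91.8 CPM (0.79 ± 0.14, adjusted p 0.0436), and Hspe1, the mitochondrial co-chaperonin, passed at 0.0473. Of 18 genes for mitochondrial RNA processing 2 were higher by edgeR, beside the same 2.42%. Hsd17b10, a subunit of the ribonuclease that cuts mitochondrial precursors, rose by 2.45 ± 0.32, from 53.2, 40.3 and 23.7 CPM in controls to 225, 218 and 198 CPM in knockouts (adjusted p 0.0308), and Rexo2, an oligoribonuclease, rose by 1.51 ± 0.28 (adjusted p 0.0450). Of the mitochondrial ribosomal RNAs, mt-Rnr2 fell by edgeR from 275, 202 and 174 CPM to 98.6, 103 and 97.9 CPM (log2 fold change -1.12 ± 0.22, adjusted p 0.0478), and mt-Rnr1 overlapped (adjusted p 0.174).

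The carriers next to the chain were mixed. Coq7, a hydroxylase of ubiquinone synthesis, rose by 1.16 ± 0.20, from 30.9, 40.2 and 35.1 CPM to 69.3, 75.0 and 92.4 CPM (adjusted p 0.0413). It was the only one of 13 genes of that list to pass by edgeR, which called 2.42% of all genes higher. By DESeq2 4 of the 13 were higher, beside 11.8% of all genes. Of the 18 citrate cycle genes 1 passed by edgeR, Suclg2, a subunit of succinyl-CoA synthetase, higher by 1.71 ± 0.30 (adjusted p 0.0432). By DESeq2 4 were higher and 2 lower, beside 11.8% and 14.8% of all genes, and the list's median was 0.02. None of the 10 electron carriers passed by edgeR. At an unadjusted p below 0.05 by edgeR 2 were higher, beside 13.8% of all genes. DESeq2 called 2 higher, beside 11.8%, and limma voom called 1, beside 5.96% in either direction. The nearest by edgeR was Etfa, of the flavoprotein that feeds electrons to ubiquinone, at 70.8 to 98.3 and 155 to 178 CPM (adjusted p 0.0553). Among the 43 assembly factors outside the pattern none passed by edgeR or limma voom. At an unadjusted p below 0.05 by edgeR 7 were higher, beside 13.8% of all genes, and by DESeq2 7 were higher, beside 11.8%. Coa3, for complex IV, was at 40.8, 56.6 and 18.2 and at 124, 110 and 123 CPM (adjusted p 0.0729).

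Of 14 regulators tested none passed by edgeR or limma voom, and the median was -0.28. At an unadjusted p below 0.05 by edgeR 3 were lower, beside 16.9% of all genes, and by DESeq2 3 were lower, beside 14.8%. Gabpa, the ETS factor named above, was at 80.8, 81.3 and 82.5 CPM in controls and at 57.4, 56.2 and 60.6 CPM in knockouts, apart (-0.49 ± 0.14, adjusted p 0.0879). Ppargc1a, a coactivator of mitochondrial biogenesis, was at 55, 2.77 and 34.0 and at 2.52, 1.14 and 0.923 CPM, with control 2 close to the knockouts (adjusted p 0.0760). Among the 16 genes for mitochondrial transcription and genome upkeep the median was 0.45. None passed by edgeR or limma voom. Of the 16, 3 were higher at an unadjusted p below 0.05 by edgeR, beside 13.8% of all genes, and 3 by DESeq2, beside 11.8%. Twnk, the helicase of mitochondrial DNA, was at 12.9 to 21.2 and 32.4 to 33.7 CPM (adjusted p 0.0730).

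The authors' deposited table of the same comparison, taken to be made with DESeq2 from the processing notes, listed all 101 members. It had 7 nuclear members higher (Ndufa13, Ndufa2, Ndufs7, Uqcrfs1, Cox6b2, Atp5d and Atp5g2) and 1 lower (Cox6a2) at an adjusted p below 0.05, against 7.1% and 10.7% of its 22441 rows. Of the mitochondrial members the authors' deposited table called 1, mt-Nd5, lower (log2 fold change -0.79, adjusted p 0.0471). Median fold changes in the authors' deposited table were 0.28 for nuclear members, -0.05 for mitochondrial members and -0.16 over all rows.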

How the data were processed

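The deposited counts are whole-number reads per gene and were not normalized. The submitters' processing notes name STAR, the mm39 build and DESeq2. The counting tool, annotation, strand setting and handling of multi-mapping reads were not given in the sources used here. The authors' deposited table gives log2 fold changes with p-values and adjusted p-values. Its column names give no tool, and DESeq2 is taken from the processing notes. Symbols were found for 52073 of 56980 identifiers, and sequences from GENCODE M21 transcripts and RefSeq promoters of GRCm38, an earlier build than mm39.

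Genes were filtered with filterByExpr, scaled by TMM and fitted in edgeR 4.0.16 (R 4.3.3; quasi-likelihood test, robust, two-sided, genotype only, all 6 samples), with Benjamini-Hochberg adjustment over all 17901 genes and a threshold of 0.05. The step was run on simulated counts, where libraries of a group differed only at random and by total. Differences in cell markers such as those between the controls were not simulated. CPM are TMM-scaled. Groups are called apart when their libraries do not overlap. Alternatives were RLE and upper-quartile scaling, other filters, DESeq2 1.42.0, limma voom (limma 3.58.1), the replicate number as a block, an adjusted p below 0.1, mitochondrial genes left out and each sample left out. Counts of genes apart, and the ratio without mt-Co1 or without genes with a near-identical copy, were chosen after seeing the data.

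Members and lists were chosen with earlier results of these data known. Named genes were all mitochondrial messengers, in each nuclear group the 3 members with the smallest p and a mean of at least 5 CPM, a list of isoforms, the Sdh genes, and of each other list up to 4 genes past the threshold or the 2 with the smallest p. Others, such as Ndufs8, Ndufv1, Ndufs1, Ndufb6, Ndufb3, Uqcrc2, Atp5e, Atp5g1, Atp5g3, Atp5a1 and Atp5b, were chosen after their values were seen. The numbers of counted reads per library limit precision, and spread between samples exceeds counting error. Some members are not reported by name.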

Additional observations from a re-analysis of the deposited data

How the results depend on the processing

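By edgeR 771 genes were called. DESeq2 called 4642, no filter 465, an adjusted p below 0.1 gave 3117, and leaving out 1 sample gave 0 (without knockout 2 or 3) to 3209 (without control 3), with 3372 and 3321 genes at an unadjusted p below 0.05 where the count was 0. Deviations from the group mean correlated weakly between samples of the same number (0.018, 0.00012 and 0.051) and of other numbers (-0.062 to 0.053). With 3 samples per group these values cannot show whether the samples were paired. With the replicate block 0 genes were called by edgeR, with 4026 at an unadjusted p below 0.05. Of the members edgeR called 0, and 0 with the replicate block (20 at an unadjusted p below 0.05). DESeq2 called 22 of 101, beside 26.6% of all genes, and limma voom 2, beside 5.96%. The 1 CPM filter gave 1, beside 6.03%, and upper-quartile scaling 1, beside 4.45% (Ndufa2 in both). An adjusted p below 0.1 gave 15 of 101, beside 17.4% of all genes. Leaving out 1 sample gave 0 to 10. Without control 1 the count was 1 (Cox7a2l), beside 3.91% of all genes. Without control 3 the count was 10 of 101, beside 17.2% of all genes. The cause of these shifts was not tested. The nuclear to mitochondrial difference of 0.50 was 0.36 as a mean of log2 CPM and 0.40 without mt-Co1. The median of nuclear members stayed between 0.26 and 0.33 in all fits, while that of mitochondrial members ran from -0.17 to 0.09.

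Fold changes near 0 changed sign. mt-Nd6 was 0.014 with no filter and -0.091 to 0.024 with 1 sample left out. mt-Atp6 was -0.010 with the 1 CPM filter, -0.018 with DESeq2 and -0.018 with RLE scaling, and -0.17 to 0.20 with 1 sample left out. Cox6a1 was -0.0050 with DESeq2 and -0.0050 with RLE scaling, and -0.057 to 0.17 with 1 sample left out. With 1 sample left out mt-Co2 ran from -0.22 to 0.17, mt-Co3 from -0.028 to 0.32, Sdhb from -0.11 to 0.015 and Cox4i2 from -1.09 to 0.34.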
